A study of Mus musculus with 32 samples.

Results

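The 8 genes Vwf, Itga2b, Gp9, Gp1bb, Gp1ba, Gp5, Pf4 and Mmrn1 encode proteins of the platelet surface and its adhesive cargo, and were followed by their symbols through 4 tables of RNA counts from mouse haematopoietic cells that differed in PRDM16, a zinc-finger transcriptional regulator. All 8 had a row in each table, and they were 8 of 25282 symbols found in any of the tables. The rule that picks them uses their names and no measured value, but it was set with earlier results of these data known.

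The leukaemia table held 12 libraries of sorted cells driven by the MLL-AF9 fusion oncogene and taken from moribund mice, 3 in each of 4 groups: wild-type PRDM16 with empty vector (WT+EV), PRDM16 knockout with empty vector (KO+EV), and PRDM16 knockout made to overexpress the isoform f-PRDM16 (KO+f) or the isoform s-PRDM16 (KO+s). The other 3 tables held sorted haematopoietic stem cells (HSCs, gated as Lin-cKit+Sca1+CD48-): adult bone marrow with wild-type PRDM16 or PRDM16 knockout (4 libraries each), fetal liver with the same pair of genotypes (3 each), and fetal liver of an f-PRDM16 knockout that keeps s-PRDM16, with its own wild type (3 each). All leukaemia groups carry MLL-AF9 and a vector, and no gated marker is a product of the 8 genes. Ages beyond adult and fetal, the number of animals behind a library and what drives the deletion are not given in the sources used here. The columns of the adult and the first fetal table bear the prefix VAV, and those of the f-PRDM16 table the prefix 47bp.

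Platelets are shed by megakaryocytes, which descend from HSCs. GPIb alpha, GPIb beta, GPIX and GPV (Gp1ba, Gp1bb, Gp9 and Gp5) form the receptor that catches von Willebrand factor (VWF), a large adhesive protein that endothelium and megakaryocytes store and release. Integrin alpha IIb (Itga2b, the CD41 antigen) pairs with beta 3 to bind fibrinogen, while platelet factor 4 (Pf4, a chemokine) and multimerin 1 (Mmrn1, a carrier of factor V) are packed into alpha granules. In the marrow, Vwf also marks HSCs biased towards platelets.

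Megakaryocyte genes are known as targets of GATA and ETS family factors, so the 250 bases before each start site were searched for GATAA and for GGAAG on both strands (TTATC and CTTCC on the other). Promoters of 7 of the 8 genes, all but Vwf, matched the RefSeq table (build GRCm38.p6). GATAA was found in 4 of 7 (Gp9, Gp1ba, Gp5 and Mmrn1) and in 22.6% of all 32851 promoters. GGAAG was found in 7 of 7 and in 64.1% of all, and both motifs in 4 of 7 and in 13.2% of all. Shown here, 5′ to 3′ on the strand of the gene, are Itga2b and 3 subunits of the VWF receptor. Their transcripts were highest or lowest in the same libraries of the first fetal table, as given below, but not in the f-PRDM16 table. Gp1bb and Pf4, which had no GATAA match, had the same highest and lowest libraries in the first fetal table and are not shown. Capitals mark the matches, which shared no base with each other.

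Itga2b, chr11:102469884-102470133, minus strand: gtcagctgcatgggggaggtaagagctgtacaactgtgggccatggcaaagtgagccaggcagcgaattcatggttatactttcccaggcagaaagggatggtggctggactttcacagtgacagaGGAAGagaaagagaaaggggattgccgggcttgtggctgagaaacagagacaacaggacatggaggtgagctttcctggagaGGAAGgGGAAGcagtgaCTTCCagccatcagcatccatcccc

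Gp9, chr6:87777820-87778069, plus strand: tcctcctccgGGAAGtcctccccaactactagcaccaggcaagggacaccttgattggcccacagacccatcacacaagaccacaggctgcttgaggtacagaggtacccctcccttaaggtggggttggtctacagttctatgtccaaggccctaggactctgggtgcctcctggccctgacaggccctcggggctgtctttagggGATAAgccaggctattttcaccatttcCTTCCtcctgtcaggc

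Gp1ba, chr11:70638872-70639121, plus strand: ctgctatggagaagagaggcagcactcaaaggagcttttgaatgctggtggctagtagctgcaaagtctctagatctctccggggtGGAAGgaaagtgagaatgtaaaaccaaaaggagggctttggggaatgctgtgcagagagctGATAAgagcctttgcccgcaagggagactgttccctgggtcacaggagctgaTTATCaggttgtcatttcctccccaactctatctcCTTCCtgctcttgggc

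Gp5, chr16:30310782-30311031, minus strand: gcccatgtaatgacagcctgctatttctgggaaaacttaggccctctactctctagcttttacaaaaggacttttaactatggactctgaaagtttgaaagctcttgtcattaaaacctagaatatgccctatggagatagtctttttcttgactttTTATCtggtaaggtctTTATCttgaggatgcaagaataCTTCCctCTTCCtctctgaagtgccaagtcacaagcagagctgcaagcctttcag

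Itga2b had 4 GGAAG matches and no GATAA match in this window. Gp1ba and Gp5 each had 2 matches of each motif, and the GATAA match of Gp9 lay 43 bases from the start. A match is a run of letters and not a measured binding site.

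Depth was 16353584 to 23785307 counts per library in leukaemia, 22490805 to 29343602 in adult marrow, 26715538 to 33246080 in the total-knockout fetal table and 35503288 to 44952448 in the f-PRDM16 fetal table. Values are CPM (a gene's counts per M gene counts of its library, M being the mega prefix), as mean ± SD where averaged. Markers of the labelled cells were present: 13 of 13 HSC and progenitor markers averaged at least 1 CPM in each HSC table, and 7 of 7 genes of the MLL-AF9 programme did in leukaemia. Prdm16 was 1.04, 0.729 and 0.429 CPM in WT+EV, 0, 0.0951 and 0.0490 in KO+EV, 179 to 335 in both add-back groups, and lower in the knockouts of both fetal tables (10.8 to 24.6 against 25.5 to 39.8, and 6.29 to 9.81 against 13.2 to 34.7). In adult marrow it was not: 41.3, 24.9, 40.8 and 13.4 CPM in the libraries labelled knockout and 53.4, 22.4, 37.8 and 10.5 in wild type, and no read over a deleted segment can be told from the rest in counts per gene. Adult marrow differences below are therefore between the libraries as labelled. The labels number the replicates without saying whether they were separate mice or transductions, so p-values measure the spread between these libraries.

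**Figure D1:**
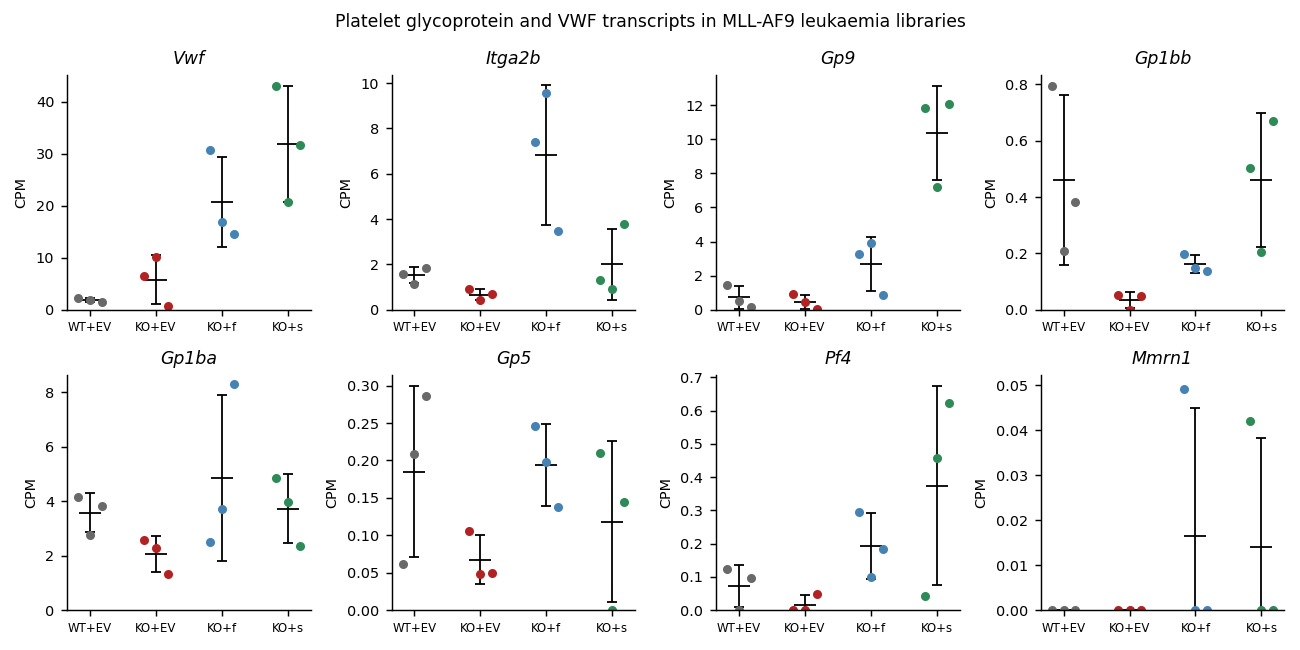
CPM of the 8 genes (vertical axes, linear, each panel on its own scale) in the 12 MLL-AF9 leukaemia libraries by group. Points are libraries, the dash and bars are the mean and SD of 3, and bars are cut at 0. Vwf lies between 14.6 and 43.1 CPM in the add-back groups and between 0.784 and 10.1 in the empty-vector groups, Itga2b is highest in KO+f and Gp9 in KO+s, and Gp5, Pf4 and Mmrn1 stay under 1 CPM throughout.

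In leukaemia cells the ligand Vwf was low with empty vector and higher with either isoform. It read 2.32, 1.93 and 1.53 CPM in WT+EV, 6.49, 10.1 and 0.784 in KO+EV, 30.7, 16.9 and 14.6 in KO+f, and 43.1, 20.8 and 31.7 in KO+s. Every add-back library exceeded every empty-vector library, while the KO+EV libraries lay on both sides of WT+EV.

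The integrin subunit Itga2b followed another order. It read 1.59, 1.15 and 1.86 CPM in WT+EV, 0.897, 0.428 and 0.686 in KO+EV, 7.39, 9.57 and 3.48 in KO+f, and 1.30, 0.915 and 3.79 in KO+s. All KO+f libraries lay above WT+EV and KO+EV, and the third KO+s library (3.79) lay inside the KO+f range.

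Among the VWF-receptor subunits Gp9 had the widest range in leukaemia. It read 1.47, 0.521 and 0.191 CPM in WT+EV, 0.897, 0.428 and 0.0490 in KO+EV, 3.25, 3.92 and 0.870 in KO+f, and 11.9, 7.17 and 12.1 in KO+s. The KO+s libraries were above all 9 others, and the third KO+f library lay just below the highest KO+EV library. Gp1ba, the subunit that carries the VWF-binding site, read 4.16, 2.76 and 3.81 CPM in WT+EV, 2.59, 2.28 and 1.32 in KO+EV, 2.51, 3.72 and 8.28 in KO+f, and 4.83, 3.97 and 2.35 in KO+s, so KO+EV lay below WT+EV and each add-back group overlapped both.

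Gp1bb was read from few counts: 13, 4 and 8 in WT+EV, 1, 0 and 1 in KO+EV, 4, 3 and 3 in KO+f, and 12, 4 and 14 in KO+s. Gp5 had 11, 4, 12 and 8 counts over the 3 libraries of WT+EV, KO+EV, KO+f and KO+s, and Pf4 had 4, 1, 12 and 23. Mmrn1 had 0 in both empty-vector groups and 1 count in each add-back group. A count of 0 allows up to 3 counts, which is 0.126 to 0.183 CPM in these libraries, and such limits and the intervals below cover counting error only. Gp5, Pf4 and Mmrn1 fell under the low-count filter and were not tested in leukaemia with the main test.

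Gp1bb shares its locus with Sept5, a septin gene on the same strand (chromosome 16 in the GENCODE M21 annotation, where Gm49601 overlaps it too), and some transcripts run through both. How the authors' counting divided shared reads is not given in the sources used here, so Gp1bb is uncertain. In leukaemia Gp1bb counts were 0 to 3.05% of Sept5 counts, against 190 to 1550% in adult marrow. Sept5 itself read 52.8, 29.3 and 48.5 CPM in WT+EV, 14.8, 11.2 and 11.6 in KO+EV, 6.45, 7.34 and 15.1 in KO+f, and 90.0, 47.7 and 65.05 in KO+s. It fell in KO+EV against WT+EV (log2 change -1.77 ± 0.34, edgeR adjusted p = 0.0307) and rose in KO+s against KO+EV (2.52 ± 0.35, adjusted p = 6.1e-04), the same directions as the Gp1bb counts. Its change in KO+f against KO+EV was -0.41 ± 0.34 (adjusted p = 0.453), while Gp1bb had 10 counts against 2. The share of Gp1bb counts that came from Sept5 transcripts was not tested.

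**Figure D2:**
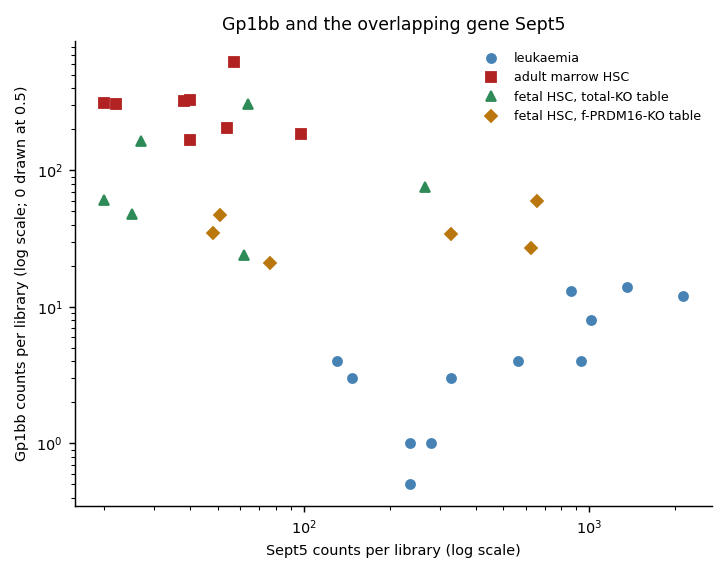
Gp1bb counts (vertical axis, log scale, a count of 0 drawn at 0.5) against Sept5 counts (horizontal axis, log scale) in each of the 32 libraries. Leukaemia libraries lie at the lower right, with 0 to 14 Gp1bb counts beside 131 to 2141 Sept5 counts, and adult marrow HSCs at the upper left, with 20 to 98 Sept5 counts.

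Loss of PRDM16 in leukaemia moved none of the 5 tested genes past the threshold. KO+EV was compared with WT+EV by edgeR's quasi-likelihood F test with Benjamini-Hochberg adjustment over 12958 genes, of which 2.10% passed at 0.05 (0.903% higher, 1.20% lower). Of the 8 genes 5 were tested and 0 passed. An unadjusted p under 0.05 was found for 2 of them and for 2344 of the 12958 genes, and DESeq2 passed 0 members and 903 of 20131 genes. Gp1bb was lower in KO+EV with 2 counts against 25 (25 against 2 is a ratio of 13.3, 95% interval 3.33 to 116, in CPM), and its log2 change was -3.51 ± 0.85 (adjusted p = 0.0565). Vwf differed by 1.58 ± 0.66 (adjusted p = 0.235), and without the third KO+EV library, the one at 0.784 CPM, by 2.09 ± 0.40 (adjusted p = 0.0222, with 0.0222 to 0.603 over its alternatives). That library also stood apart in the summed CPM of 11 granulocyte genes, 54451 against 13130.2 and 13143 in the other KO+EV libraries, and the part of this in the Vwf value was not tested. Itga2b (-1.16 ± 0.58), Gp1ba (-0.78 ± 0.45) and Gp9 (-0.62 ± 0.86) had adjusted p of 0.324, 0.391 and 0.765. Itga2b, Gp1bb and Gp1ba were lower in every KO+EV than in every WT+EV library, a separation that 12.3% of genes of mean CPM at least 1 showed in that direction (11% in the other).

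Return of f-PRDM16 raised Itga2b. In KO+f against KO+EV 11.3% of genes passed (6.88% higher, 4.39% lower), and 1 of the 5 tested members did. Itga2b rose by 3.31 ± 0.59 on the log2 scale (adjusted p = 0.00695), from 0.671 ± 0.235 to 6.81 ± 3.09 CPM (SD, n = 3), and passed under 11 of 11 alternatives. The other 4 tested genes had positive changes short of the threshold: Gp9 2.54 ± 0.82 (adjusted p = 0.0675), Vwf 1.85 ± 0.62 (0.0790), Gp1ba 1.21 ± 0.45 (0.0997) and Gp1bb 2.05 ± 0.94 (0.173). DESeq2 passed Gp9 and Vwf as well (adjusted p = 0.00838 and 0.0133; over all alternatives 0.00838 to 0.171 and 0.0133 to 0.217), and Gp9 also passed without the third KO+f library (2.96 ± 0.78, adjusted p = 0.0355). Vwf, Itga2b, Gp1bb, Gp5 and Pf4, 5 of the 8 genes, were higher in every KO+f than in every KO+EV library, beside 17.9% of genes of mean CPM at least 1 (16.7% were lower in every library). Gp1bb, Gp5 and Pf4 do not reach that mean. Their count ratios were 4.84 (95% interval 1.03 to 45.5), 2.91 (0.881 to 12.4) and 11.6 (1.72 to 497).

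Return of s-PRDM16 raised 4 of the 5 tested genes and lowered 0, in a comparison where 32.4% of all genes passed (15.9% higher, 16.6% lower). Gp9 rose by 4.61 ± 0.85 on the log2 scale (adjusted p = 0.00249), from 0.458 ± 0.425 to 10.4 ± 2.77 CPM (SD, n = 3). Vwf rose by 2.59 ± 0.64 (adjusted p = 0.0107), from 5.79 ± 4.69 to 31.9 ± 11.2 CPM. Gp1bb rose by 3.66 ± 0.83 (adjusted p = 0.00668), on 30 counts against 2, a ratio of 14.1 with a 95% interval of 3.57 to 122. Itga2b rose by 1.67 ± 0.58 (adjusted p = 0.0451). The Itga2b call was lost on leaving out the third KO+s library (0.81 ± 0.50, adjusted p = 0.263), the first (0.0534), or any KO+EV library (0.0639 to 0.142). It was also lost with the replicate block (0.0725) and with the 2 groups fitted alone (0.0865), so that it held in 4 of 11 alternatives, with 0.0164 to 0.263 over all of them. The calls of Gp9, Vwf and Gp1bb held in all their alternatives. Gp1ba changed by 0.95 ± 0.45 (adjusted p = 0.124). Pf4, outside the filter, had 23 counts against 1 (ratio 21.6, 95% interval 3.51 to 889), 22 of them in the second and the third KO+s library, and it passed in both fits that kept it (DESeq2 and edgeR without the filter, adjusted p = 0.0256 to 0.0268). The libraries of 4 members, Vwf, Itga2b, Gp9 and Gp1bb, were all higher in KO+s than in KO+EV, beside 21.1% of genes of mean CPM at least 1 (31.3% were lower in every library).

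The 2 isoforms were compared directly in KO+s against KO+f, where 3.81% of genes passed (2.05% higher, 1.76% lower). None of the 5 tested members passed with edgeR. An unadjusted p under 0.05 was found for 3 of them and for 2920 of the 12958 genes, and DESeq2 passed 2 members and 1381 of 20131 genes. Itga2b was lower with s-PRDM16 by -1.64 ± 0.54 (adjusted p = 0.102, DESeq2 0.0336), and Gp9 was higher by 2.07 ± 0.73 (adjusted p = 0.124, DESeq2 0.0364). Over the alternatives these p-values ran from 0.0336 to 0.289 and from 0.0364 to 0.295. Gp1bb differed by 1.61 ± 0.65 (adjusted p = 0.173), Vwf by 0.74 ± 0.60 (0.501) and Gp1ba by -0.26 ± 0.44 (0.762). Gp9 and Gp1bb were the 2 members whose libraries did not overlap between the isoforms, both higher in KO+s, beside 10% of genes of mean CPM at least 1 in that direction and 23.9% in the other.

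Against WT+EV, which shares its add-back libraries with the comparisons above, 2 of 5 tested members rose with each isoform. In KO+f (9.97% of genes passed, 6.11% higher and 3.86% lower) these were Vwf, by 3.43 ± 0.68 (adjusted p = 0.0124), and Itga2b, by 2.14 ± 0.55 (adjusted p = 0.0328). The Vwf call was lost without the third WT+EV library (adjusted p = 0.0572; 3.91e-07 to 0.0572 over alternatives). The Itga2b call was lost without any WT+EV library or without the first or second KO+f library (adjusted p = 0.0804 to 0.0934; 0.00195 to 0.0934 over alternatives). In KO+s (23.7% passed, 11.8% higher and 11.9% lower) they were Vwf, by 4.17 ± 0.70 (adjusted p = 0.00231), and Gp9, by 3.99 ± 0.82 (adjusted p = 0.00594), and both passed under 11 of 11 alternatives. Gp1bb had 30 counts in KO+s against 25 in WT+EV (ratio 1.05, 95% interval 0.600 to 1.87). Every KO+f library exceeded every WT+EV library for Vwf and Itga2b and lay below for Gp1bb, beside 16.3% of genes of mean CPM at least 1 all higher and 15.2% all lower. Every KO+s library exceeded every WT+EV library for Vwf and Gp9, beside 17.0% all higher and 28.9% all lower.

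**Figure D3:**
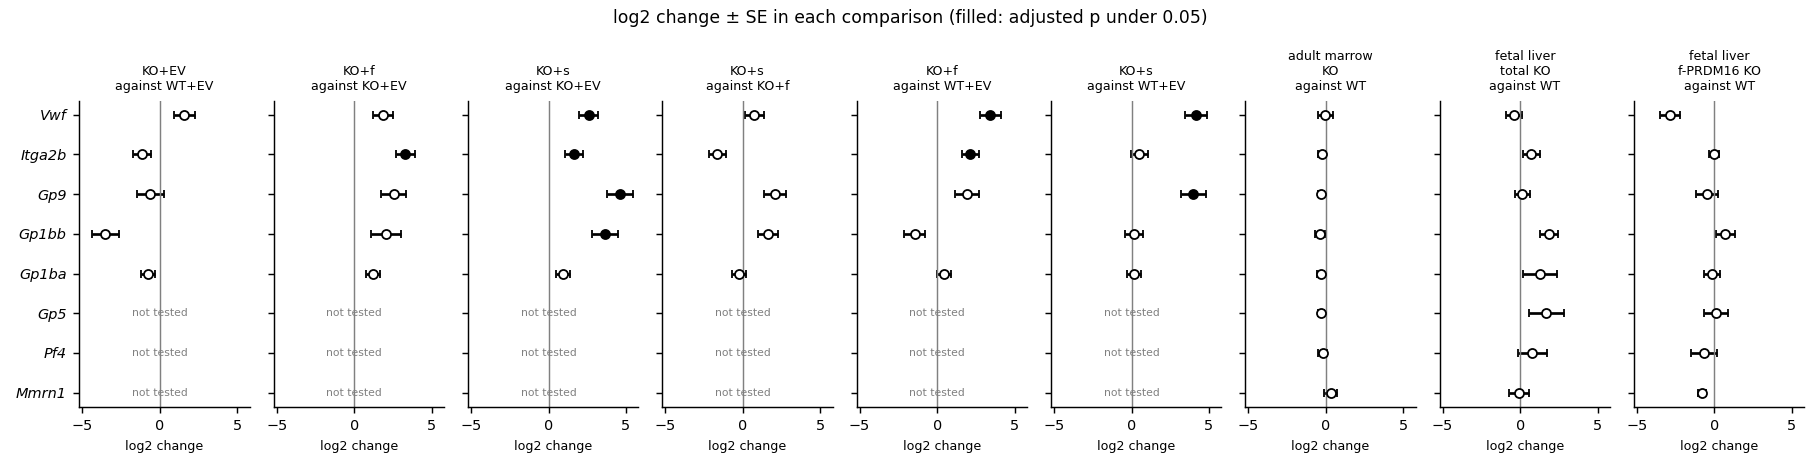
log2 change ± SE (horizontal axes) of each gene in the 9 comparisons, with filled points where the adjusted p is under 0.05 and "not tested" where the low-count filter removed the gene. Filled points occur in 4 leukaemia comparisons, and in the HSC comparisons the value farthest from 0 is Vwf in the f-PRDM16 knockout, at -2.86 ± 0.66.

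Some markers of finished megakaryocytes stayed near 0 in the leukaemia libraries, and others were expressed. Ppbp (pro-platelet basic protein) reached at most 0.863 CPM, Tubb1 (platelet beta-1 tubulin) 0.367, Treml1 0.149 and Gp6 (the collagen receptor) 0.0509. Of 10 markers of mature megakaryocytes and platelets 3 averaged at least 1 CPM, Nbeal2, Rgs18 and Itgb3. Itgb3 ran from 2.54 CPM (in KO+s) to 25.9 (in KO+EV). The summed list ran from 342 to 511 CPM in WT+EV, 262 to 349 in KO+EV, 293 to 416 in KO+f and 360 to 453 in KO+s. Most of it was Nbeal2, with group means of 229 to 312 CPM, and Rgs18, with 55.3 to 98.6. In wild-type HSCs the summed list was 459 to 638 CPM in adult marrow. In the total-knockout and f-PRDM16 fetal tables it was 157 to 287 and 277 to 300.1. Adult marrow had 9 of the 10 markers at a mean of at least 1 CPM, total-knockout fetal HSCs 9 and f-PRDM16 fetal HSCs 6. A larger sum in leukaemia than in fetal HSCs is therefore not more of the list as a whole. Gata1, the GATA factor of megakaryocytes and red cells, was at most 0.887 CPM. Of 14 endothelial markers 4 averaged at least 1 CPM; the sum was 116.97 to 193 in WT+EV, 43.8 to 182 in KO+EV, 151 to 311 in KO+f and 166 to 209.6 in KO+s. Pecam1, which leukocytes also express, reached 303 of these CPM, and Cdh5 (VE-cadherin) at most 0.845. Granulocyte genes summed to 10195 to 17660.4 CPM in WT+EV, 12709 to 17888 in KO+f and 24120.4 to 27008 in KO+s. HSC and progenitor markers (7 of 13 averaging at least 1 CPM) summed to 309 to 403 CPM in KO+EV and 450.1 to 685 in the add-back groups, without overlap, and to 380.1 to 526 in WT+EV. Macrophage markers summed to 272 to 465 CPM in WT+EV, 251 to 331 in KO+EV, 319 to 407 in KO+f and 519 to 539 in KO+s. Mast cell markers were lower in both add-back groups than in KO+EV, at 45.5 to 70.7 and 29.1 to 45.2 against 97.6 to 332 CPM. Lymphoid markers (2 of 11 averaging at least 1 CPM) were 61.0 to 141 CPM in KO+EV, 135 to 521 in KO+f and 96.4 to 160.4 in KO+s. The part of these other genes in the results was not tested.

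Other genes of the platelet programme were counted in 6 lists, in the same fits. Among 21 tested megakaryocyte transcription factors 9 rose and 1 fell in KO+f against KO+EV, with a median log2 change of 0.82 beside -0.01 for all genes, and 10 rose and 0 fell in KO+s (median 0.87, all genes -0.01). Mef2c, a MADS-box factor, rose by 3.86 ± 0.56 with f-PRDM16 and 4.35 ± 0.58 with s-PRDM16. Gata2, the GATA factor of stem and early progenitor cells, read 6.12, 2.47 and 0.0490 CPM in KO+EV, 46.9, 49.4 and 34.5 in KO+f and 19.3, 30.7 and 18.5 in KO+s, and rose by 3.93 ± 0.77 (adjusted p = 0.0116) and 3.11 ± 0.75 (adjusted p = 0.00973). Ets1 fell with f-PRDM16 (-1.54 ± 0.25, adjusted p = 0.00470). Lmo2 (1.47 ± 0.29) and Mafg (0.78 ± 0.16), a partner of NF-E2, rose with s-PRDM16.

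Of 16 tested genes listed as other platelet surface receptors 3 rose and 1 fell with f-PRDM16, and 4 rose and 3 fell with s-PRDM16 (medians 0.17 in each). Those with f-PRDM16 were F11r, Pear1 and Sele upwards and P2ry1 downwards. Sele, though counted in this list, encodes E-selectin of endothelium and not a platelet receptor. F11r, the junctional adhesion molecule A, rose by 4.00 ± 0.45 and 4.73 ± 0.46, and P2ry1, a platelet ADP receptor, fell by 1.24 and 1.18 on the log2 scale. Itgb3, the beta 3 partner of Itga2b, read 8.09 to 25.9 CPM in KO+EV, 3.30 to 14.6 in KO+f and 2.54 to 13.9 in KO+s, and its changes against KO+EV were -0.87 ± 0.73 and -0.97 ± 0.73 (adjusted p = 0.458 and 0.338). Among 22 genes of granule cargo and granule formation 1 rose with f-PRDM16 (Serpine2, 1.94 ± 0.42), while 8 rose and 2 fell with s-PRDM16, among them F5, coagulation factor V (1.98 ± 0.34), and Unc13d, which primes granules for release (0.87 ± 0.14). In this list F13a1, the A subunit of factor XIII, was the 1 gene that rose in KO+EV against WT+EV (3.44 ± 0.69, adjusted p = 0.0362).

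Of 18 genes of platelet cytoskeleton, enzymes and integrin activation 0 rose and 1 fell with f-PRDM16 (Mylk, a myosin kinase, -1.40 ± 0.41, adjusted p = 0.04999), and 7 rose and 3 fell with s-PRDM16, Plcg2 (0.97 ± 0.15) and Tln1, talin (0.66 ± 0.15), upwards and Mylk (-2.52 ± 0.42) downwards. Of 8 tested genes listed under processing or clearance of VWF 0 rose and 1 fell with f-PRDM16 (Pdia4, a disulphide isomerase, -0.82 ± 0.21). With s-PRDM16 1 rose (Furin, 0.82 ± 0.28) and 5 fell. Among these Stab1, a scavenger receptor, changed by -1.62 ± 0.34. Lman1 and Mcfd2, a cargo receptor pair for factors V and VIII rather than for VWF, changed by -0.51 ± 0.14 and -0.61 ± 0.17. Of 7 further genes of platelet-biased HSCs Dhrs3 and Procr rose with both isoforms, Dhrs3 by 2.02 ± 0.24 and 2.64 ± 0.24. These counts are to be read beside the 11.3 and 32.4% of all genes that passed.

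By the pattern of log2(CPM + 1) over the 12 leukaemia libraries, each gene scaled to mean 0 and SD 1, the 5 genes with the smallest root mean square difference from Itga2b among 9725 were Arpc5l (0.434), Lgmn (0.461), Mios (0.518), Ap3m2 (0.560) and Spns2 (0.570). Lgmn, the lysosomal protease legumain, averaged 2.54 CPM in KO+EV, 11.5 in KO+f and 4.70 in KO+s, and Spns2, a sphingosine-1-phosphate exporter, 5.24, 56.1 and 22.7. In both, KO+s lay between KO+EV and KO+f, as in Itga2b, an order that follows from choosing genes by their likeness to it.

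**Figure D4:**
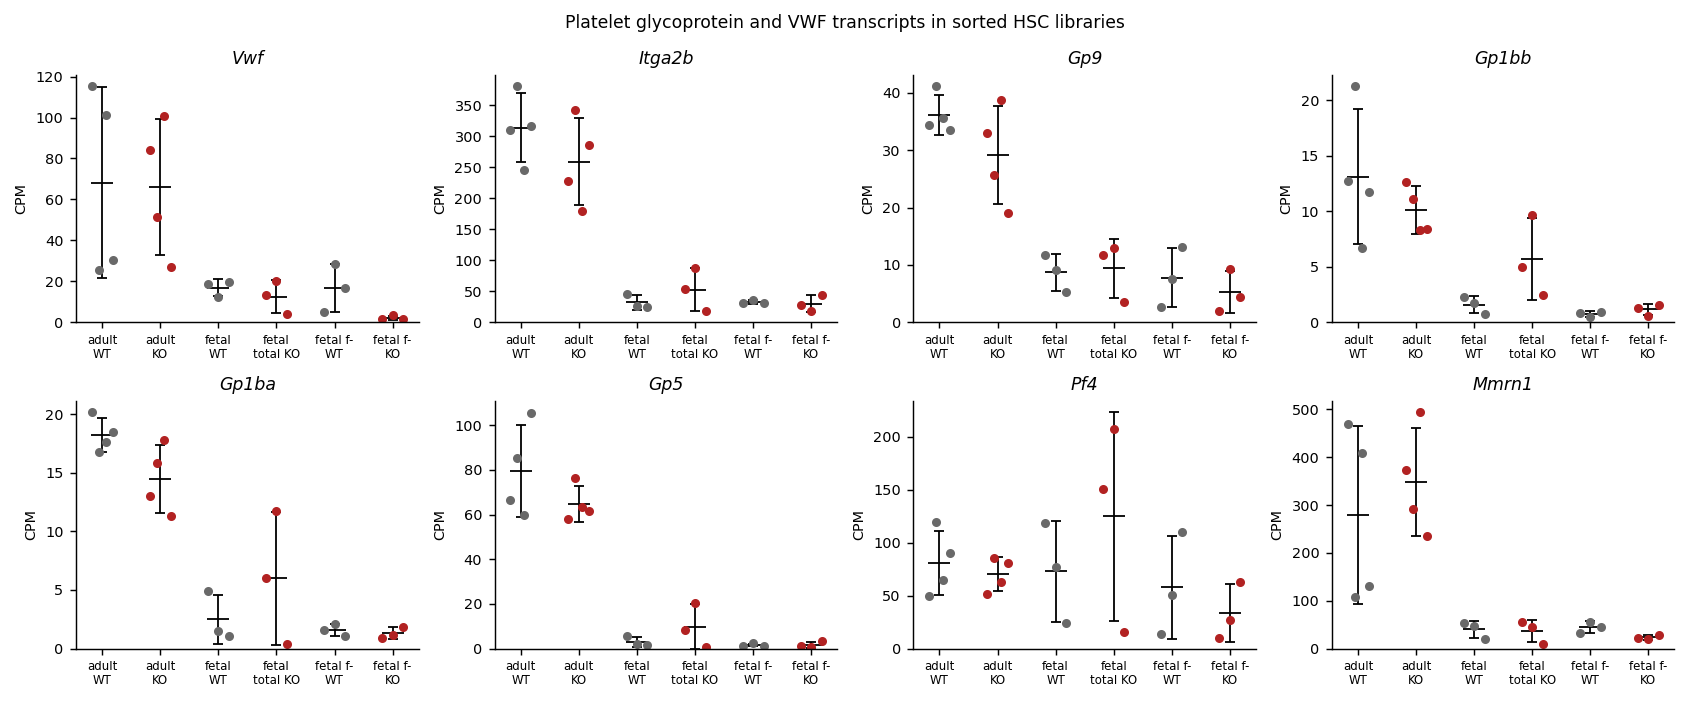
CPM of the 8 genes (vertical axes, linear, each panel on its own scale) in the 20 sorted HSC libraries, wild type in grey and knockout in red. Points are libraries, and the dash and bars are the mean and SD of 4 (adult) or 3 (fetal), cut at 0. Adult libraries lie above fetal ones without overlap for Itga2b, Gp9, Gp5 and Mmrn1, Pf4 reaches its highest and its lowest values in fetal libraries, and Vwf is lowest in the f-PRDM16 knockout, at 1.40 to 3.38 CPM. Adult and fetal libraries are from separate tables, and the share of all genes with such a gap was not counted.

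In wild-type HSCs of adult marrow all 8 genes were expressed. Per kilobase of exon (GENCODE M21 lengths, not the authors' annotation), the mean level was highest for Pf4, at 116 CPM per kb, followed by Itga2b (91.3), Mmrn1 (62.4), Gp9 (41.0), Gp5 (36.1), Vwf (6.97), Gp1ba (6.72) and Gp1bb (6.28). In wild-type fetal HSCs of the total-knockout table Pf4 was again highest, at 104 CPM per kb, followed by Gp9 (9.85), Itga2b (9.41) and Mmrn1 (8.90). In KO+s leukaemia Gp9 led at 11.8 CPM per kb, with Vwf at 3.26 and Itga2b at 0.582.

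Adult HSCs fell into libraries with much and with little Vwf, in both genotypes. Vwf read 115, 25.8, 101 and 30.2 CPM in wild type and 84.4, 51.5, 101 and 27.2 in knockout. Mmrn1 read 469, 107, 409 and 132 CPM in wild type and 372, 292, 494 and 235 in knockout. The first and the third library of each genotype were the higher ones for both genes. In wild type the HSC and progenitor markers split the libraries the same way, with sums of 4219.5, 2784, 4210.4 and 3112 CPM, and their part in these values was not tested. Itga2b, Gp5 and Pf4 split them the other way, with the first and the third library lowest in wild type. Itga2b read 311, 382, 245 and 317 CPM in wild type and 228, 342, 180.1 and 285 in knockout, with the second library highest and the third lowest.

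Of the receptor subunits Gp9 and Gp1ba varied least in adult wild type. Gp9 read 34.4, 41.2, 35.6 and 33.4 CPM in wild type and 32.9, 25.7, 38.8 and 19.1 in knockout. Gp1ba read 20.1, 16.7, 17.7 and 18.5 CPM in wild type and 12.995, 15.8, 17.8 and 11.3 in knockout. Their coefficients of variation were 9.63 and 7.94% in wild type, against 26.0% for Gp5, 46.3% for Gp1bb and 68.6% for Vwf, and 29.4 and 19.9% in knockout. Gp5 ran from 59.8 to 106 CPM (median 76.1) in wild type and from 58.0 to 76.4 (62.5) in knockout, Pf4 from 49.9 to 119 (77.4) and 51.7 to 85.6 (71.9), and Gp1bb from 6.64 to 21.3 (12.3) and 8.27 to 12.6 (9.77).

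No member differed by genotype in adult marrow. edgeR passed 0 of 13495 genes (0% called; 1141 had an unadjusted p under 0.05, and DESeq2 passed 84) and 0 of 8 members, 0 of them at an unadjusted p under 0.05 and 0 with DESeq2. Log2 changes ran from -0.38 ± 0.34 (Gp1bb) to 0.33 ± 0.42 (Mmrn1), with -0.28 ± 0.21 for Itga2b, -0.34 ± 0.22 for Gp1ba and -0.04 ± 0.50 for Vwf, and adjusted p from 0.659 to 0.987. The median of the 8 was -0.29 beside -0.03 for all genes. The groups overlapped for each of the 8, and 3.30% of genes of mean CPM at least 1 were higher and 2.68% lower in every knockout library.

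In fetal HSCs of the total-knockout table most of the 8 genes shared their highest and their lowest library within each genotype. Itga2b read 46.3, 26.3 and 24.4 CPM in wild type and 53.7, 86.9 and 17.8 in knockout. Gp5 read 5.69, 1.99 and 1.47 CPM in wild type and 8.15, 20.5 and 0.558 in knockout. Gp1ba read 4.90, 1.48 and 1.08 CPM in wild type and 5.98, 11.7 and 0.361 in knockout. The third knockout library was lowest of its group for 8 of 8 genes, and the second highest for 7 of 8, all but Mmrn1. In wild type the first library was highest and the third lowest for 7 of 8, all but Vwf. The share of all genes that were highest or lowest in these libraries was not counted.

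Pf4 showed the same order, with 118, 76.6 and 23.7 CPM in wild type and 151, 207 and 16.1 in knockout, and so did Gp9 (11.7, 9.04 and 5.32, then 11.8, 12.9 and 3.44). Mmrn1 read 52.7, 47.6 and 19.3 CPM and 55.3, 44.5 and 9.81. Ppbp, no member but a marker of mature megakaryocytes, read 18.9, 16.7 and 0.782 CPM in wild type and 39.1, 52.8 and 1.64 in knockout. Its log2 change with edgeR was 1.38 ± 1.35 (adjusted p = 0.9998). With the replicate block it was 1.33 ± 0.16 (adjusted p = 0.0105). That block rests on a pairing taken from these data, in which the second pair was weak (correlation 0.194). The summed marker list of mature megakaryocytes read 287, 211 and 157 and then 306, 377 and 137. Granulocyte genes went the other way in the third libraries, with sums of 169.9, 261 and 1809 CPM in wild type and 743, 1457 and 13348 in knockout. HSC and progenitor markers summed to 1760.1 to 2022 CPM in wild type and 1497 to 1712 in knockout. The part of these markers in the members' values was not tested, and in sorted bulk samples fewer cells of a type and less RNA per cell cannot be told apart.

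Gp1bb was the 1 member whose libraries separated by genotype in this table, beside 3.57% of genes of mean CPM at least 1 in that direction and 7.58% in the other. It read 2.28, 1.74 and 0.722 CPM in wild type and 4.97, 9.67 and 2.46 in knockout. edgeR passed 0 of 15590 genes (0%; 739 had an unadjusted p under 0.05, and DESeq2 passed 77) and 0 of 8 members, 1 of them at an unadjusted p under 0.05 and 0 with DESeq2. The log2 change of Gp1bb was 1.88 ± 0.59 (unadjusted p = 0.0158, adjusted p = 1.00). With replicate number as a block, since same-numbered fetal libraries deviated together, it was 1.82 ± 0.32 (adjusted p = 0.0453), in a fit that passed 176 genes. The second pair correlated at 0.194, and each of its libraries was closest to one of another number. Leaving out both second libraries ended the blocked Gp1bb call (1.48 ± 0.37, adjusted p = 0.303), and the adjusted p of Gp1bb ran from 0.0364 to 1.00 over all alternatives. The overlapping Sept5 read 0.749, 0.904 and 1.86 CPM in wild type and 0.824, 2.00 and 8.76 in knockout (log2 change 1.78 ± 0.88, adjusted p = 1.00; with the block 1.32 ± 0.44, adjusted p = 0.237). It was higher in knockout in each of the 3 numbered pairs, as Gp1bb was, and highest in the third knockout library, where Gp1bb was lowest of its group.

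The other 7 changes in the total knockout ran from -0.41 ± 0.50 (Vwf) to 1.69 ± 1.11 (Gp5), with Gp1ba at 1.29 ± 1.09 and Itga2b at 0.73 ± 0.54, and none had an unadjusted p under 0.05. Vwf read 18.7, 12.4 and 19.7 CPM in wild type and 13.5, 19.9 and 4.17 in knockout. The median of the 8 was 0.76 beside -0.00062 for all genes. Without the third knockout library the change was 1.86 ± 0.67 for Gp1ba and 2.26 ± 0.66 for Gp5 (adjusted p = 1.00 for each, as with it).

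Fetal HSCs without f-PRDM16 had less Vwf in every library than any of their wild types, a difference that did not pass the adjusted threshold. Vwf read 4.87, 28.4 and 16.8 CPM in wild type and 1.40, 3.38 and 1.62 in the f-PRDM16 knockout, or 16.7 ± 11.8 against 2.13 ± 1.09 (SD, n = 3). Mmrn1 read 31.6, 56.2 and 45.2 CPM in wild type and 21.6, 19.4 and 29.3 in knockout. These were the 2 members lower in every knockout library, beside 5.81% of genes of mean CPM at least 1 (1.30% were higher in every knockout library).

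edgeR passed 0 of 13631 genes in this comparison (0%; 357 had an unadjusted p under 0.05, and DESeq2 passed 4) and 0 of 8 members, 2 of them at an unadjusted p under 0.05 and 1 with DESeq2. The log2 change of Vwf was -2.86 ± 0.66 (unadjusted p = 0.00355, adjusted p = 0.999), and with DESeq2 -2.84 ± 0.59 (adjusted p = 0.0152). With the replicate block it was -2.69 ± 0.33 (adjusted p = 0.107). With the block and without both first libraries it was -3.09 ± 0.25 (adjusted p = 0.0356), and over all alternatives the adjusted p ran from 0.0152 to 1.00 and the log2 change from -3.32 to -2.28. The change of Mmrn1 was -0.81 ± 0.26 (unadjusted p = 0.0157, adjusted p = 0.999, 0.123 to 1.00 over its alternatives).

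The glycoproteins did not separate by genotype there. Itga2b read 31.0, 36.3 and 30.8 CPM in wild type and 28.1, 17.9 and 44.2 in the f-PRDM16 knockout (log2 change -0.02 ± 0.33). Gp9 read 2.71, 7.55 and 13.04 CPM in wild type and 2.03, 9.21 and 4.49 in knockout (-0.48 ± 0.69), and Pf4 13.5, 50.6 and 109.6, then 10.3, 27.2 and 63.3 (-0.67 ± 0.84). Gp1ba, Gp1bb and Gp5 lay between 0.473 and 3.16 CPM in all 6 libraries, with changes of -0.16 ± 0.50, 0.69 ± 0.60 and 0.08 ± 0.76. The median of the 8 was -0.32 beside -0.01 for all genes. The summed mature megakaryocyte markers were 277 to 300.1 CPM in wild type and 242 to 314 in knockout, while granulocyte genes summed to 7045, 3440.2 and 21375 in wild type and 7623, 31993 and 47339 in knockout. The 13 HSC and progenitor markers summed to 1796, 2818 and 1989 CPM in wild type and 1767, 1754 and 1185 in knockout, all lower in knockout as Vwf was. Endothelial markers summed to 115, 249 and 202 CPM in wild type and 87.3, 116 and 122 in knockout, with an overlap. The part of these lists in the values of Vwf and Mmrn1 was not tested.

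The knockout effects were compared between HSC tables as interactions, with 1 of 15949 genes passing between fetal and adult total knockout (0.00627%; 1268 had an unadjusted p under 0.05, and DESeq2 passed 38) and 0 of 15777 between the fetal tables (335 at an unadjusted p under 0.05, 0 with DESeq2). No member passed either, with 1 at an unadjusted p under 0.05 and 0 with DESeq2 in each. These were Gp1bb, with a fetal minus adult effect of 2.23 ± 0.69 (unadjusted p = 0.00555, adjusted p = 0.586), and Vwf, with an f-PRDM16 minus total knockout effect of -2.45 ± 0.86 (unadjusted p = 0.0156, adjusted p = 1.00).

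**Figure D5:**
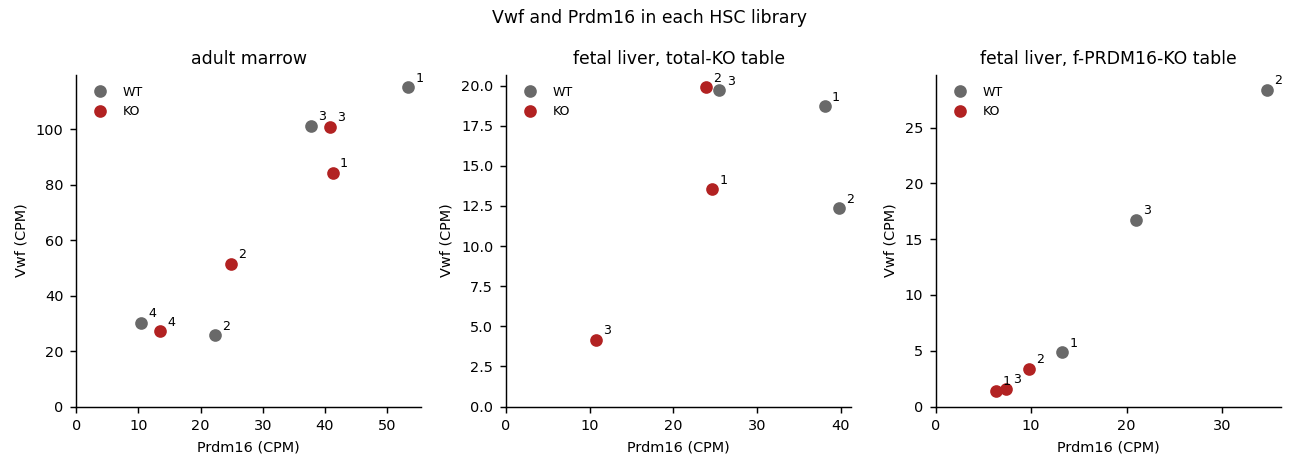
Vwf CPM (vertical axes, linear) against Prdm16 CPM (horizontal axes, linear) in each HSC library of the 3 tables, wild type in grey and knockout in red, numbered by replicate. In adult marrow the 4 libraries with Prdm16 of at least 37.8 CPM have Vwf of at least 84.4, and in the f-PRDM16 table both genes have the same order in all 6 libraries.

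Prdm16 itself was among the genes nearest to Vwf in pattern over the HSC libraries, though their order of libraries differed in part. Over 20 HSC libraries, with log2(CPM + 1) centred within each table and scaled to SD 1, Prdm16 ranked 3 of 10334 genes by its root mean square difference from Vwf (0.447), after Gpr56, an adhesion receptor of stem cells (0.433), and Trpc6, a cation channel (0.443), and before Clip3 (0.457) and Foxd2 (0.459). Centred within each group, an alternative chosen after these values were seen, so that the difference between genotypes does not count, Prdm16 ranked 8 (0.521) and Clip3 2 (0.503). On that scale Gpr56 ranked 15 (0.560), Foxd2 10 (0.544) and Trpc6 6 (0.518). In adult marrow both genes were high in the same libraries but did not rank them all alike. In wild type, Prdm16 of 53.4 stood beside 115 CPM of Vwf in the first library and 37.8 beside 101 in the third. The second had more Prdm16 than the fourth but less Vwf (22.4 beside 25.8, and 10.5 beside 30.2). In knockout the first library had the most Prdm16 (41.3 CPM) but less Vwf than the third (84.4 against 101). In the f-PRDM16 table both genes ranked the 6 libraries alike. In the total-knockout fetal table they did not, since the second wild-type library had the highest Prdm16 (39.8 CPM) and 12.4 CPM of Vwf. These libraries share preparation and depth within a table, and the likeness is a description.

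Of the other members Mmrn1 stood nearest to Vwf on this scale and Gp1bb farthest. Centred within each group, Mmrn1 ranked 114 (0.699). Centred within each table, the ranks were as follows. Mmrn1 ranked 169 (0.706), Gp9 932, Gp1ba 3024, Pf4 3307, Gp5 4746, Itga2b 5544 and Gp1bb 8339 of the 10334.

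Across all 10 groups adult HSCs had the highest mean for 7 genes, with Pf4 highest in the total-knockout fetal group (125 ± 98.3 CPM). The tables differ in preparation, poly-A libraries in leukaemia and low-input amplified cDNA in HSCs, so levels between them were not tested. The share of all genes with the same order or gaps was not counted either. For Itga2b the order of means was adult wild type (314 ± 55.7 CPM) and knockout (259 ± 70.3), then the 4 fetal groups (52.8 to 30.1), then KO+f (6.81), KO+s (2.00), WT+EV (1.53) and KO+EV (0.671), and 6 of its 9 neighbouring pairs overlapped. For Vwf the order was adult wild type (68.1 ± 46.7) and knockout (66.0 ± 33.04), KO+s (31.9), KO+f (20.7), wild-type fetal liver of the total-knockout table (16.9) and of the f-PRDM16 table (16.7), total knockout (12.5), KO+EV (5.79), f-PRDM16 knockout (2.13) and WT+EV (1.93), and 9 of 9 neighbouring pairs overlapped. Gp9 in KO+s (10.4 CPM) stood between the adult groups and the highest fetal group (9.39). Gp5, Pf4 and Mmrn1 in leukaemia lay below every HSC library, at no more than 0.623 CPM.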

How the data were processed

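RNA of sorted mouse cells was sequenced, and 4 tables of raw counts per gene were deposited, 1 for leukaemia and 3 for HSCs. Per the submitters' processing notes the authors used bcl2fastq 2.17, TopHat, the mouse build mm9 and DESeq. The tool, annotation and strand setting that gave the deposited counts are not given in the sources used here. Per the labels, libraries were poly-A selected, and those of HSCs were amplified with a low-input kit. Rows were taken by symbol. Spike-in entries stayed out of totals and tests. The 8 members and the gene lists were chosen with earlier results of these data known. All 8 members are named throughout. From each list up to 4 passing genes of smallest p are named per comparison, and a few regulators, Itgb3 and Sept5 are named whether or not they passed. Some genes that this rule names are not reported here.

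Counts were tested with edgeR's quasi-likelihood F test (version 4.0.16, R 4.3.3) after filterByExpr, with TMM scaling and robust dispersions. Tests were two-sided, and p-values were adjusted by Benjamini-Hochberg over every gene that passed the filter, with a threshold of 0.05. The 12 leukaemia libraries were fitted together and share the estimate of spread, each HSC table was fitted alone, and the interactions were fitted over both tables. Standard errors are the log2 change divided by the square root of F. DESeq2 1.42.0, other size factors, no filter, each library left out, 2 groups alone and a replicate block were alternatives, and the scripts were tested on simulated data. No pair of libraries agreed within sampling noise (lowest chi-square per degree of freedom 11.6 over 124 pairs). Intervals of count ratios are 95% exact conditional binomial intervals. The low-count limit is 3 counts.

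Replicate numbers were taken to pair libraries where deviations from the group means correlated above 0.1 in every pair. They did in both fetal tables (0.398, 0.194 and 0.609 in the total knockout, 0.602, 0.326 and 0.486 in the f-PRDM16 knockout), a pairing that comes from the data and not from the labels. The second pair of the total knockout (0.194) is the weakest case, since each of its libraries correlated best with one of another number.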

Additional observations from a re-analysis of the deposited data

How the results depend on the processing

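DESeq2 passed more genes than edgeR: 903 in KO+EV against WT+EV, 2248 in KO+f against KO+EV, 1381 in KO+s against KO+f, 2067 in KO+f against WT+EV, 84 in adult marrow, 77 in the fetal total knockout and 4 in the f-PRDM16 knockout. For KO+s it passed 4786 genes against KO+EV and 3715 against WT+EV. Of the members DESeq2 passed 3 in KO+f and 5 in KO+s against KO+EV, and 2 in KO+s against KO+f. It also passed 2 in each of KO+f and KO+s against WT+EV, and 1 in the f-PRDM16 knockout. With only the 2 groups compared, 1 gene passed in KO+EV against WT+EV, 392 genes in KO+f against KO+EV and 2 members in KO+s against KO+EV. In these fits and those below the cause was not tested, beyond fewer libraries where some were left out.

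Replicate numbers in leukaemia and adult marrow are shared numbers only: same-numbered libraries correlated at -0.195 to 0.309, and some were closest to another number. The replicate block there passed 2 members in KO+f against KO+EV and 3 in KO+s against KO+EV, and turned the sign of Vwf in adult marrow (0.089). In the fetal total knockout the block passed 176 genes and 1 member, and in the f-PRDM16 knockout it turned Gp5 to -0.30. It ended or made no other call in the fetal tables. Blocked fits without both libraries of a number were added after seeing the data. Without number 1, 2 and 3 they passed 138, 51 and 320 genes in the total knockout, and 1, 0 and 1 members. Without number 2 the total-knockout changes were -0.052 for Itga2b, -0.23 for Gp9, -0.39 for Gp1ba, -0.21 for Gp5 and -0.017 for Pf4, and without number 3 Vwf was at 0.12. In the f-PRDM16 knockout, leaving out number 1 passed 236 genes and 1 member, with Gp1ba at 0.066 and Gp5 at -0.23. Leaving out number 2 gave 0.27 for Itga2b and 0.11 for Gp1ba, and leaving out number 3 gave 0.015 for Gp9 and -1.26 for Gp5. Itga2b there was 0.00063 with RLE size factors and 0.0017 with DESeq2.

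With each library left out in turn, genes passing ran from 26 to 425 in KO+EV against WT+EV, 559 to 1533 in KO+f against KO+EV, 2732 to 3821 in KO+s against KO+EV, 37 to 388 in KO+s against KO+f, 559 to 1071 in KO+f against WT+EV, 1765 to 2467 in KO+s against WT+EV, and 0 to 3 in adult marrow. Members passing ran from 0 to 1, 1 to 2 and 0 to 2 in KO+EV against WT+EV, KO+f against KO+EV and KO+f against WT+EV. Log2 changes that crossed 0 were those of Gp9 in KO+EV against WT+EV (-1.50 to 0.34), Gp1ba in KO+s against KO+f (-0.57 to 0.37), KO+f against WT+EV (-0.20 to 0.74) and KO+s against WT+EV (-0.073 to 0.40), and Gp1bb (-0.22 to 0.74) and Itga2b (-0.36 to 0.87) in the last. In adult marrow Vwf ran from -0.32 to 0.32 and Pf4 from -0.39 to 0.019. In the fetal total knockout Vwf ran from -0.90 to 0.0042, Gp9 from -0.15 to 0.53 and Mmrn1 from -0.53 to 0.35. In the f-PRDM16 knockout Itga2b ran from -0.42 to 0.27, Gp9 from -1.11 to 0.12, Gp1ba from -0.53 to 0.048, Gp5 from -1.05 to 0.52 and Pf4 from -1.55 to 0.20. The fetal minus adult effect of Vwf ran from -0.89 to 0.0078. None of these changes passed the threshold in any setting.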
